A study of Sus scrofa with 16 samples.

Results

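Genes for proteins of the cytosolic ribosome were measured in liver of 16 growing pigs. A probe was a member when its annotated gene symbol was RPSA, RPLP0, RPLP1, RPLP2, or RPS or RPL followed by a number with an optional A, L or X ending, kinases excepted. This gave 203 of the 43603 probes on the array and 33 of the 5326 gene symbols on it. The small subunit had 17 genes with 95 probes, and the large subunit had 16 genes with 108 probes. Of these probes, 198 were found by their gene name and 5 by the symbol in their description.

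The RFIneg group held 8 pigs of the low-RFI line and the RFIpl group held 8 pigs of the high-RFI line, where RFI stands for residual feed intake, or feed eaten beyond what growth and upkeep predict. All pigs weighed 20 kg, all were fed ad libitum, and each liver RNA was hybridised alone to 1 array. No source used here gives the sex, age or litter of the pigs. With 1 line per direction of selection, selection and any other difference of the lines cannot be told apart.

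Each ribosome has a small subunit that reads the mRNA and a large subunit that joins amino acids. Their proteins are assembled on ribosomal RNA mostly in equal numbers, and in mammals their mRNAs share a pyrimidine tract at the start through which growth signals set their translation. In liver the ribosome makes the plasma proteins as well as the cell's own enzymes.

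A level is the log2 signal of a probe relative to the 75th percentile of its array, so a level of 0 lies at that percentile. Levels of different probes are not read as relative amounts of mRNA, because probes differ in how strongly they bind. A change is RFIneg minus RFIpl, fitted with limma over 30099 probes that exceeded background clearly on 8 or more arrays of 16, with Benjamini-Hochberg adjustment over all of them. Of the 203 member probes, 199 passed this filter. The exceptions were 2 probes of RPL23 and 1 each of RPS28 and RPS29, each well above background on at most 2 arrays, while other probes of these genes were measured. No member spot was saturated or marked as an outlier. A gene with several probes is given by the tested probe with the highest mean level.

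Ribosomal protein genes differed little between the lines. Of 199 member probes, 0 passed an adjusted p of 0.05 in limma, against 3 of all 30099 probes (0.00997%). At an unadjusted p under 0.05, 14 member probes were higher in RFIneg and 0 were lower, which is 7.04% of the members, against 5.45% of all probes, 2.46% higher and 2.99% lower. Of 629 other probes from the middle of the range of member levels, 25 were higher and 6 lower, or 4.93%. The 14 member probes belonged to 3 genes, with 8 probes of RPL6, 4 of RPL14 and 2 of RPSA. Probes of a gene often overlap, so they are not separate observations. The count of 14 was 5 (2.51%, against 4.48% of all probes) with normexp, 7 (3.52%, against 3.81%) without the arrays marked by the scanner software, 19 (9.55%, against 5.52%) with the array median and 21 (10.6%, against 5.48%) with trend and robust variances, with 0 lower in each. Without RPL6, 6 of 186 probes remained, or 3.23%. Lines did not overlap for 0 member probes, against 0.0432% of all probes.

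Small changes lay mostly above 0. In the small subunit 13 of 17 genes had a change above 0 and the median change was 0.069. In the large subunit 13 of 16 genes did and the median was 0.053. Over all 199 member probes, many of which overlap, the median change was 0.079 and 83.4% were above 0. Over all tested probes the median change was -0.001 and 49.7% were above 0. Over 629 other probes, taken from the middle of the range of levels of the 199, the median was 0.029 and 58.2% were above 0. This side of 0 depended on how arrays were scaled, since 26 of 33 genes were above 0 with the 75th percentile, 33 with the array median, 19 with quantile normalisation, 18 with cyclic loess and 13 with normexp background correction. With normexp the median change was -0.003 in the small and -0.040 in the large subunit, while that of all probes was 0.092, so both subunits then lay below the other probes. Single genes had a median SE of 0.088 in the small and 0.084 in the large subunit, and no test was made of the medians.

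**Figure D1:**
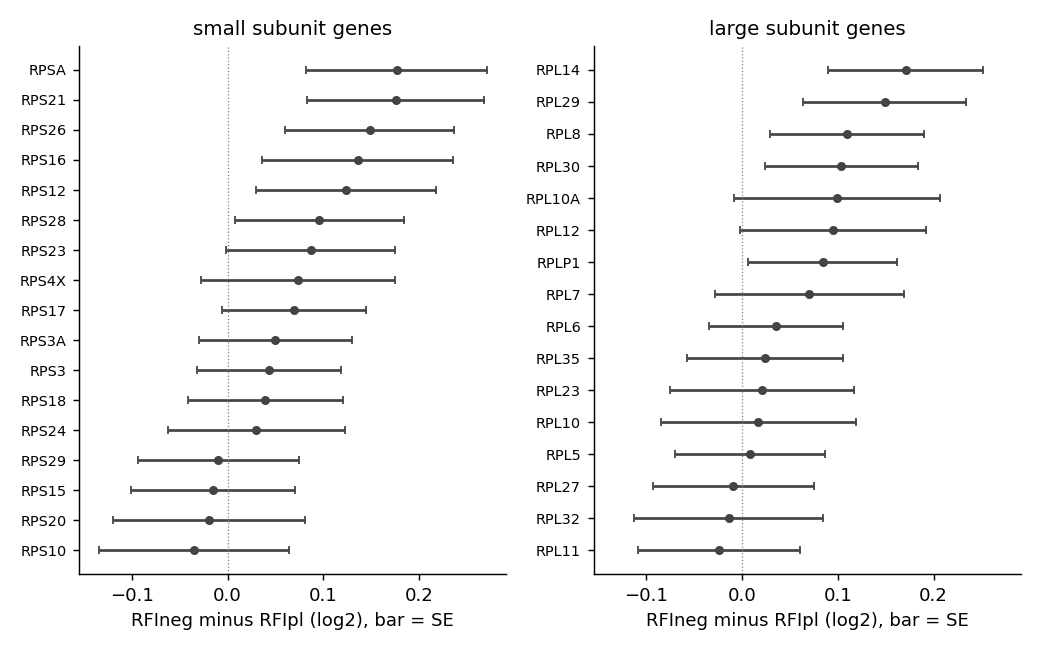
Change of each gene, RFIneg minus RFIpl on the log2 scale, with its standard error, for the 17 small subunit genes and the 16 large subunit genes. The changes run from -0.035 for RPS10 to 0.18 for RPSA, and 26 of 33 lie above 0 on this scale, against 13 with normexp background correction.

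**Figure D2:**
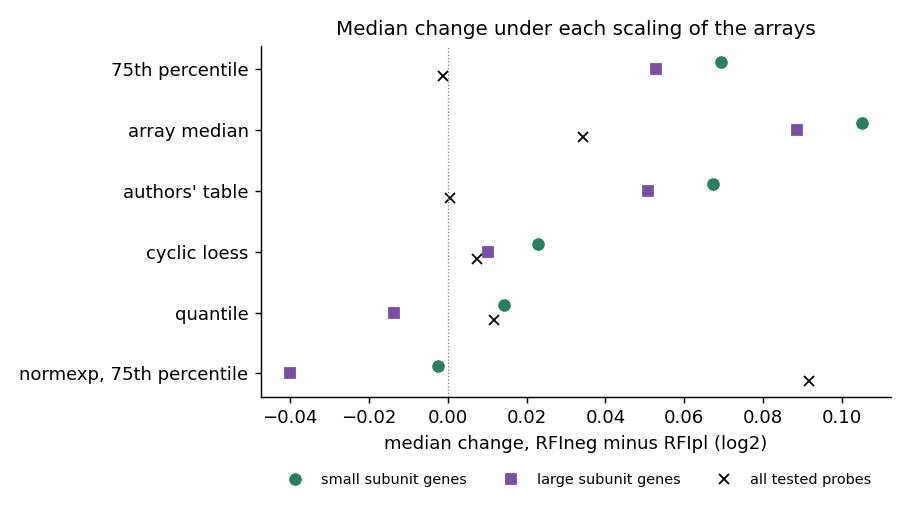
Median change, RFIneg minus RFIpl on the log2 scale, of small subunit genes, large subunit genes and all tested probes under 6 ways of scaling the arrays. The large subunit median runs from -0.040 with normexp to 0.088 with the array median.

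Among the small subunit genes, RPSA had the largest change. The RPSA protein sits at the back of the small subunit and shares its sequence with a laminin-binding receptor. RPSA had levels from 6.80 to 7.16 with a median of 6.94 in RFIneg pigs, against 6.59 to 7.06 with a median of 6.74 in RFIpl pigs. The lines overlapped and the change was 0.18 (SE 0.09, limma adjusted p = 0.959). All 6 RPSA probes had a change above 0, from 0.18 to 0.37. On the RPSA probe that starts at base 471 of the transcript, levels were 6.32 to 7.01 in RFIneg and 5.59 to 6.72 in RFIpl, with RFIpl 6 at 5.59 the lowest and RFIpl 7 at 6.04 next. Its change of 0.37 had an adjusted p of 0.861 in limma.

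RPS21, a small protein on the solvent side, had levels of 7.66 to 8.19 with a median of 7.82 in RFIneg pigs, against 7.51 to 7.87 with a median of 7.71 in RFIpl pigs. Its change was 0.18 (SE 0.09, limma adjusted p = 0.956), and RFIneg 7 was the highest pig. RPS26, which lies where mRNA leaves the ribosome, had levels of 7.46 to 7.72 with a median of 7.63 in RFIneg and 7.23 to 7.71 with a median of 7.47 in RFIpl. The change was 0.15 (SE 0.09, adjusted p = 0.967 in limma) and the lines overlapped over most of their range. RPS16 and RPS12, both small subunit proteins, had changes of 0.14 and 0.12 with standard errors of 0.10 and 0.09.

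RPS3, at the entry of the mRNA channel, RPS18, in the head of the subunit, and RPS4X, the X-linked copy of RPS4, had changes of 0.043, 0.040 and 0.074, each below its standard error. The changes of RPS3 and RPS18 were below 0 with quantile normalisation, cyclic loess and normexp. The array names 14 of the 15 RPS4X probes RPS4. RPS23, close to the decoding site, had a change of 0.087 (SE 0.088) at a level of 7.96 to 8.26 in RFIneg and 7.77 to 8.19 in RFIpl. The 4 small subunit genes with a change below 0 were RPS10, RPS20, RPS15 and RPS29, from -0.035 to -0.009. Each of these changes was smaller than its standard error, and each was above 0 with the array median as the scale.

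RPL14 and RPL29 led the large subunit. RPL14 levels were 6.33 to 6.58 with a median of 6.47 in RFIneg pigs, against 6.01 to 6.41 with a median of 6.34 in RFIpl pigs, where RFIpl 5 was the lowest and stood apart from the other 7 at 6.26 to 6.41. The change of 0.17 (SE 0.08) was the only one among the 33 genes with an unadjusted p under 0.05, and its limma adjusted p was 0.912. The 6 RPL14 probes had changes from 0.17 to 0.40, all above 0. RPL29 had levels of 7.25 to 7.61 in RFIneg and 7.15 to 7.51 in RFIpl, with a change of 0.15 (SE 0.09, limma adjusted p = 0.967).

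RPL8, RPLP1, RPL10A, RPL30, RPL7 and RPL10 had changes from 0.017 to 0.11, and 0 of them passed the adjusted threshold in limma. RPL8, whose protein lies next to the site where peptide bonds form, had levels of 7.92 to 8.19 in RFIneg and 7.70 to 8.09 in RFIpl and a change of 0.11 (SE 0.08). RPLP1, an acidic protein of the stalk that calls in elongation factors, had 8.35 to 8.66 in RFIneg and 8.28 to 8.56 in RFIpl and a change of 0.084 (SE 0.078). RPL10A, in the stalk where spent tRNA leaves, had a change of 0.099 (SE 0.107), and RPL30 and RPL7 had 0.10 and 0.070. RPL10, which joins the subunit last in the cytoplasm, had one of the widest spreads, from 7.23 in RFIneg 2 to 7.88 in RFIneg 7, and a change of 0.017 (SE 0.102). Changes of RPL10A, RPL30, RPL7 and RPL10 were below 0 with normexp.

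RPL5 and RPL11 carry the 5S RNA into the large subunit and, when free, bind the p53 regulator MDM2. RPL5 had levels of 7.48 to 7.67 in RFIneg and 7.39 to 7.75 in RFIpl and a change of 0.009 (SE 0.078). RPL11 had levels of 7.69 to 7.98 in RFIneg and 7.67 to 8.02 in RFIpl and a change of -0.023 (SE 0.084). RPL32 and RPL27 had changes of -0.014 and -0.009. No direction can be read for these 4 genes, whose changes moved across 0 when single pigs were left out, RPL11 only without RFIpl 6.

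Spread between pigs was narrow. The SD within lines had a median of 0.133 in small subunit genes and 0.120 in large subunit genes, against 0.326 over all tested probes. Among all 199 member probes the median was 0.156. Among 629 other probes, taken from the middle of the range of levels of these 199, it was 0.256. The probes that stand for the 33 genes were brighter, with a median level of 7.46, against 6.30 for the 629. As a coefficient of variation the medians were 9.24% in the small and 8.33% in the large subunit. Replicate spots of 1 array varied by 6.97% ± 0.50 in RFIneg and 8.04% ± 0.66 in RFIpl (SD, n = 8 each), a difference of -1.07 percentage points with a two-sided exact permutation p of 0.00373 over 12870 splits. The scanner software marked 5 arrays for evaluation, 0 of RFIneg and 5 of RFIpl. The arrays had 28695 to 35126 probes well above background, the highest number being in RFIpl 6, and the number of arrays limits the precision. RPL6 had the smallest SD of all tested probes at 0.058, with levels of 7.40 to 7.56 in RFIneg and 7.36 to 7.51 in RFIpl on the probe nearest the end of the transcript. RPL10A had the largest of the 33 genes at 0.19.

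Both subunits moved together from pig to pig. The level of a pig was taken as the mean over genes of its difference from the 16-pig mean. For the small subunit this was 0.149, -0.016, -0.041, -0.013, -0.083, 0.078, 0.135 and 0.067 in RFIneg 1 to 8, against -0.085, -0.089, -0.078, 0.059, -0.138, 0.048, -0.076 and 0.085 in RFIpl 1 to 8. For the large subunit it was 0.096, -0.017, -0.051, 0.022, -0.077, 0.10, 0.090 and 0.075 in RFIneg 1 to 8, against -0.028, -0.084, -0.082, 0.050, -0.137, -0.010, -0.031 and 0.086 in RFIpl 1 to 8. Both subunits were above the mean in 6 pigs and below it in 8, and RFIneg 4 and RFIpl 6 had opposite signs. These signs depended on the use of 1 probe per gene. Averaged over all tested member probes, RFIneg 4 and RFIpl 6 had like signs. The opposite signs were then in RFIneg 3 (small -0.010, large 0.080) and RFIneg 7 (small 0.077, large -0.014). The genes share arrays and a scaling factor, so a shift of a whole array moves every gene together. RFIneg pigs averaged 0.034 ± 0.085 and RFIpl pigs -0.034 ± 0.084 in the small subunit, and 0.029 ± 0.071 against -0.029 ± 0.073 in the large subunit (SD, n = 8 each). The difference between lines, 0.069 and 0.059, was smaller than the SD within lines. In RFIpl 6 the genes disagreed most, with an SD over genes of 0.20 around its mean and single genes from -0.42 to 0.37.

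**Figure D3:**
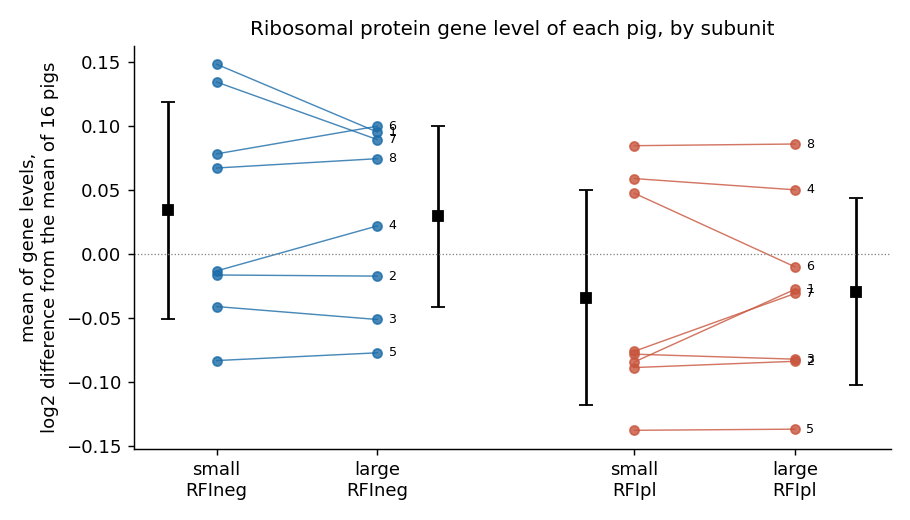
Mean level of small and large subunit genes in each pig, as the log2 difference from the mean of 16 pigs, RFIneg left and RFIpl right. Lines join the 2 subunits of a pig, digits give its replicate number, and black squares with bars give mean and SD. The RFIneg pigs run from -0.083 to 0.149 and the RFIpl pigs from -0.138 to 0.085 in the small subunit.

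The median change stayed between 0.034 and 0.084 in both subunits when any 1 pig was left out. Slides held 4 arrays each, 2 per line. Within slides 1 to 4 the small subunit median was 0.062, 0.151, 0.043 and 0.001, and the large subunit median was 0.068, 0.110, 0.016 and 0.053. With the noise of each array as a covariate, the medians were 0.144 and 0.081. Slide 2 gave the largest value for both subunits.

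The probes of RPL6 disagreed along the transcript. RPL6 is a large subunit protein on the outer face. Its 13 probes start between bases 387 and 855 of the transcript in the array's annotation. Of these, 6 are printed, 4 on which RFIpl 3 was the lowest of the 16 pigs (at 617, 622, 650 and 692) and 2 from outside that stretch (at 387 and 730). Capitals mark the longest run of at least 10 bases that a probe has in common with the probe at 622, itself left in lower case, and the probe at 692 has none. Overlapping probes can differ in sequence as well as in position. Of 181 pairs of member probes on the same transcript with starts at most 45 bases apart, 52 were identical over the whole overlap.
RPL6 probe at 387: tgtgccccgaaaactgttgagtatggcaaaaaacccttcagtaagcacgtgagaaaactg
RPL6 probe at 617: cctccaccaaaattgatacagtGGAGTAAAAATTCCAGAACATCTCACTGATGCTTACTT
RPL6 probe at 622: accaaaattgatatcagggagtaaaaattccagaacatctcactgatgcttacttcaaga
RPL6 probe at 650: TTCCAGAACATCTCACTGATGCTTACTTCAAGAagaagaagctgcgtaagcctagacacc
RPL6 probe at 692: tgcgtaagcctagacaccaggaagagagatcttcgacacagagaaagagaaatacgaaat
RPL6 probe at 730: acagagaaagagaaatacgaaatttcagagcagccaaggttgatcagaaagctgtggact

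On the RPL6 probe at 622, levels were 3.89 to 4.49 with a median of 4.40 in RFIneg pigs, against 0.60 in RFIpl 3 and 3.19 to 4.23 in the other 7 RFIpl pigs. RFIpl 3 minus the RFIneg median was thus -3.80 on the log2 scale. On all 9 probes that start from 617 to 692, RFIpl 3 was the lowest of 16 pigs, at -3.80 to -0.79 relative to the RFIneg median. RFIpl 7 was next lowest on 8 of the 9, and its values relative to that median ran from -1.06 to -0.40 on the 9 probes. Other RFIpl pigs were low there as well, since on each of the 9 probes the RFIpl median lay below the lowest RFIneg pig. On the RPL6 probe at 692, levels were 6.23 to 6.43 in RFIneg, against 5.51 to 6.36 with a median of 5.89 in RFIpl. RFIpl 4, at 6.36 on this probe, was inside the RFIneg range. On the RPL6 probe at 730, RFIpl 3 had 5.90 and RFIpl 7 had 5.80, against 5.95 to 6.15 in RFIneg pigs and 5.88 to 6.14 in the other RFIpl pigs.

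The change on these 9 probes ran from 0.29 to 0.93, and 8 had an unadjusted p under 0.05, with limma adjusted p from 0.567 to 0.945. Without RFIpl 3 the changes were 0.16 to 0.53, again with 8 unadjusted p under 0.05 and limma adjusted p from 0.547 to 0.885. The probes at 387, 708, 730 and 855 had changes of 0.069, 0.13, 0.056 and 0.035. The 9 probes span bases 617 to 751 and each overlaps its neighbours, though the first and the last share no base, so they are not separate observations. This stretch was singled out after its values had been seen.

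**Figure D4:**
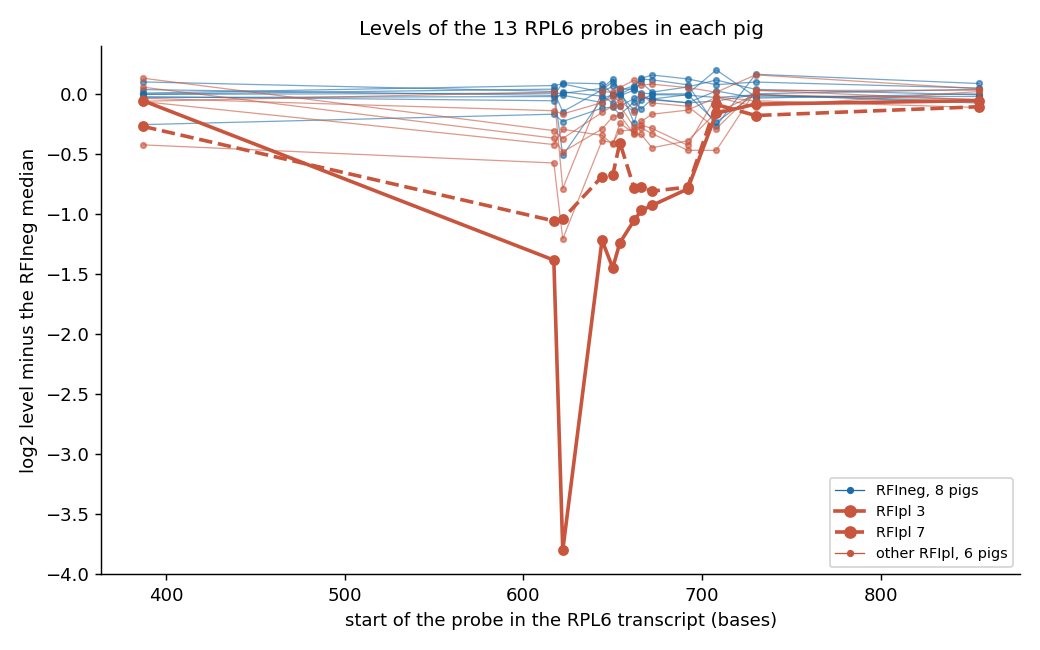
Level of each of the 13 RPL6 probes minus the RFIneg median of that probe, on the log2 scale, by start of the probe in the transcript, 1 line per pig. RFIpl 3 falls to -3.80 at base 622 and RFIpl 7 to about -1.06 at base 617, and both lie near the other pigs from base 708 on. On each probe from 617 to 692 the RFIpl median also lies below the lowest RFIneg pig.

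RPL32, on the solvent side of the large subunit, had 2 probes of a like kind. On the RPL32 probe at 300, levels were 6.49 to 6.92 with a median of 6.82 in RFIneg, against 5.99 to 6.87 with a median of 6.65 in RFIpl. The low pigs were RFIpl 6 at 5.99, RFIpl 3 at 6.23, RFIpl 4 at 6.29 and RFIneg 1 at 6.49, and the other 12 were at 6.60 or above. On the RPL32 probe at 521 the same 4 pigs were lowest, with RFIneg 1 at 7.72, RFIpl 3 at 7.36, RFIpl 4 at 7.54 and RFIpl 6 at 7.78, and the others at 7.99 or above. On the RPL32 probe at 565, RFIneg 1 had 7.61, RFIpl 3 had 7.41, RFIpl 4 had 7.58 and RFIpl 6 had 7.55, inside or close to the range of 7.48 to 7.86 in the other pigs. The 2 probes do not overlap. They too were picked after their values had been seen.

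RPS15, a protein of the small subunit head, had 6 probes that refer to a cDNA clone of the gene. At base 1071 of that clone, levels were 4.50 to 5.66 with a median of 4.80 in RFIneg, against 4.60 to 5.27 with a median of 4.75 in RFIpl. The high pigs were RFIneg 1 at 5.21, RFIneg 6 at 5.32, RFIneg 7 at 5.66, RFIpl 7 at 5.27 and RFIpl 8 at 5.09, and the others were at 4.83 or below. The RPS15 probe on the reference transcript at base 419 had 6.96 to 7.21 in RFIneg and 6.95 to 7.31 in RFIpl. On this probe the highest pig was RFIpl 6 at 7.31, which had 4.81 on the clone probe at 1071.

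Sample numbers in the deposited file names run from 1 to 8 and from 55 to 62, each with 4 pigs per line; no source used here says what the numbers stand for. The split is described with no test, since it was noticed in these values. The first probes of RPL5 differed between the series. On the RPL5 probe at 391, levels were 3.48 to 4.19 in pigs numbered 1 to 8, against 3.01 to 3.57 in pigs numbered 55 to 62, a difference of 0.64. On the RPL5 probe at 373 the difference was 0.57, on that at 377 it was 0.31, and on that at 921 it was 0.05. The probes at 373 and 391, with the largest differences in this gene, are shown for their overlap, with capitals marking the longest run of bases they share.
RPL5 probe at 373: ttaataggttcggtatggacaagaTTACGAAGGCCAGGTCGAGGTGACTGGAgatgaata
RPL5 probe at 391: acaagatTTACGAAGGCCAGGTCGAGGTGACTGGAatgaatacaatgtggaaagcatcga

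The same order appeared along other transcripts. In 19 genes, RPL5 included, probes on the reference transcript spread over 200 bases or more. The early and late probes are those in the first and last 33.3% of this spread. Pigs numbered 1 to 8 minus pigs numbered 55 to 62 gave a higher value for the early than for the late probes in 19 of 19 genes, with medians of 0.065 and -0.038. The median of this difference over all 30099 tested probes was -0.038, the same as for the late probes. The late probes also had the higher level in 19 of 19 genes, by a median of 1.46. The early and late means therefore do not separate position in the transcript from strength of the signal. Single probes varied in both ways. RPL7 probes at 310 and 758 averaged 6.05 and 6.06 in pigs numbered 1 to 8, with differences between series of 0.23 and 0.030. RPL5 probes at 373 and 377, close in position, averaged 4.08 and 5.62 in these pigs, with differences of 0.57 and 0.31. The part of each was not tested. Per pig, late minus early probes averaged -0.142 to 0.027 with a median of -0.068 in pigs numbered 1 to 8, against -0.029 to 0.219 with a median of 0.045 in pigs numbered 55 to 62. RFIpl 6 had the highest value at 0.219. By line, the values were -0.015 ± 0.095 in RFIneg and 0.015 ± 0.116 in RFIpl (SD, n = 8 each), well inside the spread. The median change between lines was 0.086 for early and 0.056 for late probes, and the SD within lines was larger for the early probes in 14 of 19 genes. Both series have 4 pigs of each line.

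**Figure D5:**
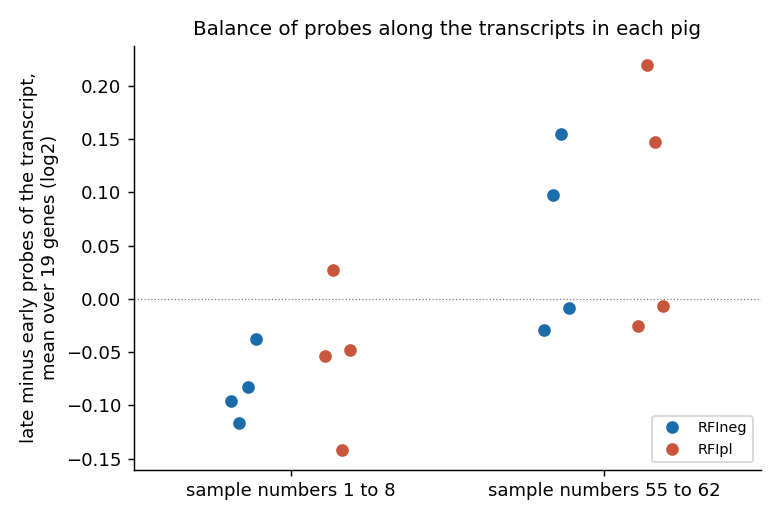
Mean over 19 genes of the level of late minus early probes of the transcript, on the log2 scale, for each pig by series of sample numbers, RFIneg left of RFIpl. Pigs numbered 1 to 8 run from -0.142 to 0.027 and pigs numbered 55 to 62 from -0.029 to 0.219.

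Genes around the ribosome were read from lists written with earlier results known. Of 10 symbols listed for ribosomal proteins under other names and their relatives, 6 were measured, with 0 past the adjusted threshold and a median change of 0.048. GNB2L1, a scaffold on the small subunit, had a change of 0.11 (SE 0.10). Of 13 mitochondrial ribosomal protein genes, which serve a separate ribosome, 0 passed and the median was 0.015, with MRPS31 at 0.30 (SE 0.19) and MRPL32 at -0.16 (SE 0.11). Probes that name a ribosomal protein only in words, 26 in all, had a median of 0.033.

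EEF1A1, which brings charged tRNA to the ribosome, had the smallest p of these lists. Its levels were 8.34 to 8.68 with a median of 8.47 in RFIneg, against 7.89 to 8.45 with a median of 8.21 in RFIpl. The change was 0.35 (SE 0.10) with an adjusted p of 0.493 in limma, and the lines overlapped between 8.34 and 8.45. Of 38 translation factors 10 were measured, with 0 past the adjusted threshold, 6 above 0 and a median of 0.024, against 0.080 over 8 genes with a narrower symbol match. EIF4A1, an RNA helicase of initiation, had a change of 0.28 (SE 0.16).

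Ribosome assembly factors had 11 of 54 genes measured, 0 past the adjusted threshold and a median of -0.054, against -0.0095 over 7 genes with the narrower symbol match. UTP3, of the small subunit processome, had levels of 1.63 to 2.84 in RFIneg and 2.16 to 2.98 in RFIpl and a change of -0.35 (SE 0.17, limma adjusted p = 0.942). DDX21, a nucleolar helicase, had -0.16 (SE 0.17). Of 30 genes of the mTOR and MYC routes that govern ribosome production 12 were measured, with 0 past the threshold and a median of -0.008, against -0.055 over 8 genes with the narrower match. EIF4EBP2, a brake on initiation, had -0.19 (SE 0.16), and MDM2 had 0.11 (SE 0.11).

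Markers were read for the tissue as a whole, where fewer cells of a type and less RNA per cell cannot be told apart. Hepatocyte markers were measured for 7 of 11 genes and all 7 had a change above 0 on this scale, with a median of 0.058 and 0 past the adjusted threshold. Their mean level per pig ran from -0.11 to 0.33 in RFIneg and from -0.30 to 0.22 in RFIpl around the 16-pig mean. ALB averaged 9.32 ± 0.13 in RFIneg and 9.29 ± 0.21 in RFIpl (SD, n = 8 each). T and NK cell markers (9 of 14) had a median of 0.27, with pigs from -0.67 to 1.48 in RFIneg and from -0.58 to 1.19 in RFIpl. Markers of dividing cells (8 of 14) had a median of 0.38 with pigs from -0.50 to 0.61 in RFIneg and from -0.71 to 0.45 in RFIpl. Kupffer cell markers (6 of 12) had a median of -0.10, stellate cell markers (7 of 8) -0.14, B cell markers (2 of 9) -0.005 and erythroid markers (1 of 9) 0.009. None of these lists had a gene past the adjusted threshold in limma, and their part in the small changes of ribosomal protein genes was not tested.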

How the data were processed

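Total RNA was labelled with Cy3 and hybridised to 1-colour Agilent porcine arrays. Per the file headers, Agilent Feature Extraction 10.7.3.1 with protocol GE1_107_Sep09 read the scans. The deposited processed signal is an intensity that the software background-subtracted and detrended within each array, with no scaling between arrays. The authors' deposited table holds log2 values of 27938 spots, each equal to the median-centred log2 processed signal within 4.48e-08. The submitters' processing notes name R 2.10.0. No genome was used.

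Outlier spots were set to missing, each array's 75th percentile was subtracted from its log2 signal and repeated spots were averaged. Lines were compared with limma 3.58.1 in R 4.3.3 and Benjamini-Hochberg adjustment, threshold 0.05. The p-values measure the spread between these 16 arrays.

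Members and lists were chosen with earlier results of these data known. Symbols for related lists were matched more broadly, through accessions, after their first values had been seen, which raised the translation factors measured to 10 from 8 and moved list medians, so medians under both matches are given. Named were, per subunit, the 5 smallest p in each direction, the 3 largest SD, the 2 genes whose probes differ most and a fixed list, with 2 genes per related list, of which 1 is not reported here.

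Alternatives were other background corrections, scalings, filters, probe rules, slide and replicate blocks, variances and leaving out each pig. Added after the data had been seen were the sample-number series, array noise, leaving out the marked arrays, and counts without RPL6 or RFIpl 3. The code was tested on simulated data.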

Additional observations from a re-analysis of the deposited data

Results flagged for a closer look

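A pig was set apart when its gap to the nearest pig of its line was too large a share of the line's whole range by Dixon's critical value for 8 samples. Of 184 sets of 8 pigs tested, over named genes, single probes of 6 genes and the pig means, 8 had such a pig, and chance gives about 1 in 20 such sets. Many of these sets are overlapping probes of a gene.

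RFIpl 5 was low for RPL8 at 7.70, against 7.94 to 8.09 in the other RFIpl pigs, and for RPL14 at 6.01, against 6.26 to 6.41. It was also low on a second RPL14 probe, A_72_P441723, at 5.45 against 5.84 to 6.05. RFIpl 5 had the lowest mean level of both subunits.

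RFIpl 3 was low on 3 RPL6 probes. Its level was 0.60 on A_72_P756548, against 3.19 to 4.23 in the other RFIpl pigs, 4.53 on A_72_P730073, against 5.30 to 5.99, and 4.52 on A_72_P722398, against 5.36 to 5.82. RFIneg 7 was low on the RPL6 probe A_72_P729518 at 4.78, against 5.01 to 5.13 in the other RFIneg pigs. RFIneg 1 was low on the RPL32 probe A_72_P735568 at 7.72, against 8.02 to 8.28.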

How the results depend on the processing

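Of the member probes, 0 passed the adjusted threshold under every alternative run. The number among all probes was 1 with probes well above background on all 16 arrays, 7 with array weights, 0 with array noise as a covariate, 0 without the marked arrays, 0 within slide 1, 0 within slide 3 and 0 within slide 4, and 2 to 5 when single pigs were left out. Member probes higher at an unadjusted p under 0.05 numbered 11 to 20 without single pigs, and 0 were lower. These were 5.53% to 10.1% of the members, against 4.77% to 5.80% of all probes in either direction. The lowest count, without RFIpl 7, was 5.53% of the members, against 5.39% of all probes. With normexp the large subunit had a median change of -0.040 and a mean change over its genes of -0.030. The median SD was then 0.190 in the small and 0.185 in the large subunit. With the mean of the single-probe SDs taken for each gene, the large subunit median was 0.166. Without single pigs, medians ran from 0.044 to 0.084 (small) and from 0.034 to 0.071 (large).

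None of the named changes passed the adjusted threshold, and many crossed 0. With normexp RPS12 was at -0.0025, RPL30 -0.075, RPL10A -0.040, RPL10 -0.017, RPL7 -0.019, RPL6 -0.065, RPS3 -0.059, RPS18 -0.056 and RPL5 -0.064. With quantile normalisation RPL10 was at -0.056, RPL6 -0.033, RPS3 -0.013, RPS18 -0.017 and RPL5 -0.054. With cyclic loess RPL10 was at -0.028, RPL6 -0.0082, RPS3 -0.0052, RPS18 -0.0018 and RPL5 -0.035. With the array median RPS10 was at 0.00034, RPS20 0.016, RPS15 0.020, RPS29 0.026, RPL11 0.012, RPL32 0.022 and RPL27 0.027. Averaged over probes RPS10 was at 0.046, RPS20 0.00082, RPS15 0.13, RPL11 0.0074, RPL32 0.090 and RPL5 -0.0040. With array weights RPS10 was at 0.017, RPS20 0.026, RPS15 0.0078, RPS29 0.0035 and RPL32 0.032. With array noise RPS15 was at 0.0075, RPS29 0.0052 and RPL10 -0.056, and without the marked arrays RPS29 was at 0.016 and RPL10 -0.0045. In slide 1 RPL32 was at 0.0021, RPL27 0.0087, RPL5 -0.024, MRPL32 0.12 and DDX21 0.18. In slide 2 RPS10 was at 0.15, RPS20 0.17, RPS15 0.093, RPS29 0.023, RPL11 0.030, MDM2 -0.11, MRPS31 -0.076 and EIF4A1 -0.060. In slide 3 RPS29 was at 0.019, RPS4X -0.19, RPL27 0.0088, RPL10 -0.16 and RPS18 -0.090. In slide 4 RPSA was at -0.025, RPS10 0.081, RPS23 -0.0060, RPL32 0.056, RPL27 0.067, RPL7 -0.087, RPL6 -0.024, RPL5 -0.037 and EIF4EBP2 0.38. Leaving out single pigs, RPL5 ran from -0.015 to 0.036, RPS29 from -0.033 to 0.017, RPL32 from -0.064 to 0.023, RPS20 from -0.047 to 0.032, RPS15 from -0.036 to 0.016, RPL27 from -0.035 to 0.035, RPL10 from -0.013 to 0.081, RPS10 from -0.070 to 0.0071 and RPL11 from -0.047 to 0.0019. The cause was not tested.

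With line means removed, same-numbered pigs correlated by 0.048 to 0.395, over 0.1 in 6 of 8 pairs. Replicates 1 to 4 of both lines carry sample numbers 1 to 8, and replicates 5 to 8 carry 55 to 62. Same-numbered pigs therefore also share a series of sample numbers. The main fit did not use the replicate numbers as pairing, and what else same-numbered pigs share was not tested. With the replicate numbers as a block 0 member probes were called. At an unadjusted p under 0.05 in limma, the block gave 7.04% of member probes and 7.97% of all probes. Without the block these shares were 7.04% and 5.45%. The subunit medians of 0.069 and 0.053 cannot move, since each number holds 1 pig per line. Of the RFIneg pigs, 5 of 8 correlated best with their own number.

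With the narrower symbol match the median change was 0.080 over 8 translation factors, -0.0095 over 7 assembly factors, -0.055 over 8 genes of the mTOR and MYC routes, 0.016 over 12 mitochondrial ribosomal protein genes and 0.39 over 6 markers of dividing cells, and the 1 erythroid marker was not matched.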
